A study of Mus musculus with 18 samples.

Results

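The levels of gene expression in the wild-type mouse cerebellum were described from 6 of the 18 arrays of a study of spinocerebellar ataxia type 6, a movement disorder caused by a polyglutamine expansion in the pore-forming subunit of the Cav2.1 calcium channel (gene Cacna1a). The 6 arrays were chosen by their labels alone. They held total RNA from cerebella of wild-type littermates of MPI 11Q/11Q knock-in mice (3 arrays) and of MPI 118Q/118Q knock-in mice (3 arrays), all of strain C57BL/6. The series text gives an age of 6 weeks to MPI 118Q/118Q and CtmKO/CtmKO mice and none to the 11Q line. Line, litter and age therefore cannot be told apart between the wild-type groups of the 11Q and 118Q lines. The labels describe no allele, transgene or treatment in the wild-type mice. The remaining 12 arrays (the homozygous knock-in mice of both lines, CtmKO/CtmKO mice and their wild-type littermates, 3 arrays each) served to choose the probe sets, to estimate the spread in the line comparison and to set levels and spreads beside those of other mice. Arrays are named here by line and replicate number, from 11Q-1 to 118Q-3, and 6 values given together stand in the order 11Q-1, 11Q-2, 11Q-3, 118Q-1, 118Q-2 and 118Q-3. Each array is a separate sample in the labels, and statistics therefore measure the spread between these samples.

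The cerebellar cortex is built from a very large population of small excitatory granule cells, from Purkinje cells, whose axons are the only output of the cortex, from inhibitory interneurons and from Bergmann glia, the specialised astrocytes that accompany the Purkinje cells. Cav2.1 carries much of the calcium current of Purkinje cells. The choroid plexus of the fourth ventricle and the brainstem lie directly against the cerebellum.

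Of 45101 probe sets, 34945 carried exactly 1 gene symbol and stood for 18193 genes, each represented by its brightest probe set (by the mean of the 18 arrays). Mean levels ran from 0.045 to 11.46 on the deposited log2 scale, with the median gene at 3.88, and the zero point of that scale is not known. The 71 measured olfactory and vomeronasal receptor genes, which serve smell in the nose, had a median level of 0.67, and their 95th percentile of 2.23 was used as the background level. In all, 11717 genes (64.4%) lay above it. The level of a gene reflects how well its probes bind as well as the amount of RNA, and no correction for transcript length applies to such arrays. Among the 9010 genes with several probe sets, the brightest and dimmest probe set of the same gene differed by a median of 2.27, so a rank places the signal of a probe set and not a number of RNA molecules. The 6 arrays correlated with each other at r = 0.990 to 0.996 across genes, which are not independent replicates.

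The highest mean level belonged to Mbp, the myelin basic protein of oligodendrocytes, at 11.46 ± 0.15 (SD, n = 6 arrays, as for all means below). Its values were 11.46, 11.33, 11.62, 11.24, 11.62 and 11.48, so no array stood far from the others. Aldoc, the brain aldolase that marks stripes of Purkinje cells as zebrin II and is also made by astrocytes, followed at 11.29 ± 0.06, with 11.40 on 118Q-3 and 11.25 to 11.30 on the other arrays. Fth1 (ferritin heavy chain, iron storage) at 11.15 ± 0.05, Cox6a1 (a cytochrome c oxidase subunit) at 11.12 ± 0.07 and Ckb (brain creatine kinase) at 11.11 ± 0.08 came next. Their differences were as small as their spread, and their order is not resolved.

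Genes of neurons were among the 25 highest. Snap25, a membrane fusion protein of the nerve terminal, stood at 11.08 ± 0.12. The Purkinje cell genes Pcp4 (10.82 ± 0.11), Calb1 (10.66 ± 0.07, the calcium buffer calbindin) and Pcp2 (10.49 ± 0.16) were on this list, and so were the granule cell genes Zic1 (10.57 ± 0.09, a transcription factor) and Gabra6 (10.45 ± 0.08, the GABA-A receptor alpha 6 subunit). Itm2b, a membrane protein that is processed like the amyloid precursor, stood at 11.02 ± 0.04, and App, the amyloid precursor itself, at 10.51 ± 0.04. Ptgds, the prostaglandin D synthase of oligodendrocytes and meninges, had 11.01 ± 0.15. The list also held Ndrg4 (10.84 ± 0.09), the ribosomal protein gene Rps29 (10.82 ± 0.11), Tpt1 (10.79 ± 0.08), the neuronal membrane glycoprotein Gpm6a (10.68 ± 0.08), the respiratory chain genes Uqcrb (10.63 ± 0.09) and Cox5b (10.50 ± 0.09), the cytoskeletal Actb (10.63 ± 0.10), the sodium pump subunit Atp1b1 (10.62 ± 0.14), the translation factor Eef1a1 (10.51 ± 0.03) and Fam107a (10.50 ± 0.19). Of these 25 genes, 16 were among the 25 highest on every one of the 6 arrays, and 35 genes were on at least 1 array.

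Ttr (transthyretin, the thyroid hormone carrier made by the choroid plexus) was the exception to this narrow spread. Its values were 11.94, 11.90, 11.90, 11.90, 6.27 and 11.83. It had the highest level of all genes on 5 arrays, above Mbp or Aldoc, and on 118Q-2 it ranked 3436. Its mean of 10.96 ± 2.30, rank 9, therefore describes none of the 6 animals.

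**Figure D1:**
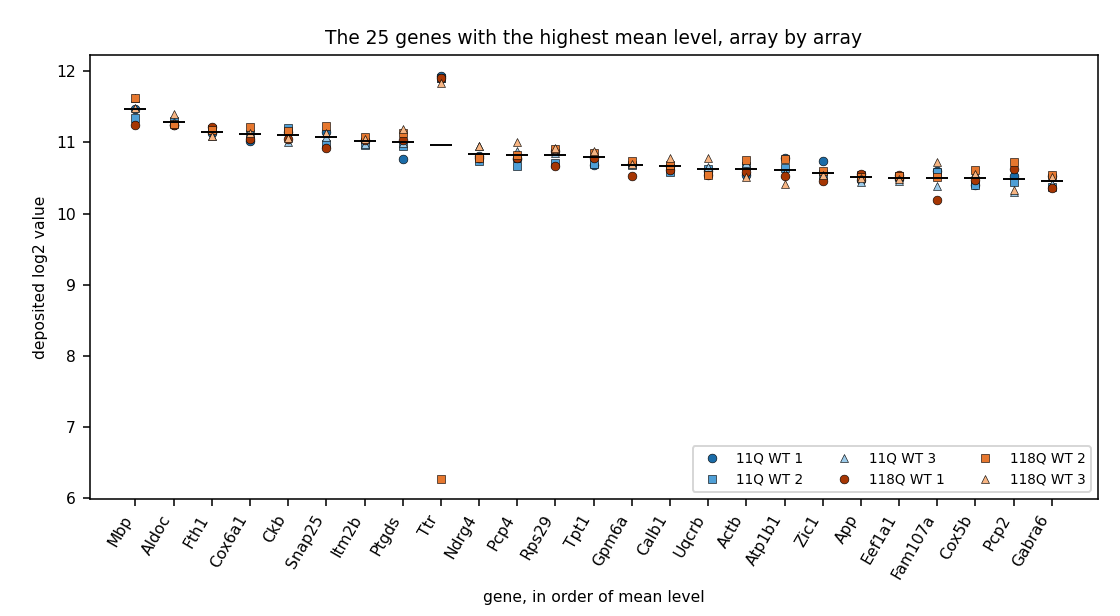
Deposited log2 values (vertical axis) of the 25 genes with the highest mean level (horizontal axis), with 1 symbol per wild-type (WT) array and a black bar at the mean of 6 arrays. The genes lie between 10 and 12 on every array except Ttr, which is at 6.27 on 118Q-2 and at 11.83 to 11.94 on the other arrays. The vertical axis does not start at 0.

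Among the 100 highest genes were 12 of oxidative phosphorylation, 6 of the cytosolic ribosome, 6 of the Purkinje cell list, 6 of the granule cell list and 2 of the oligodendrocyte list. On each array separately, 76 of these genes were among the 100 highest throughout. The 12 arrays outside the description shared 91 of the 100. The choice of probe set mattered more than the choice of animals: with the mean of all probe sets of a gene 47 of the 100 genes remained, and with the dimmest probe set 39. With 1 of the 6 arrays left out in turn, 97 to 99 remained. Names ending in _a_at, for probes that match several transcripts of 1 gene, accounted for 36 of the 100 and 11.2% of all genes. Names ending in _x_at, for probes that can bind unrelated transcripts, accounted for 17 of the 100 and 3.39% of all genes, and names ending in _s_at, for probes shared by transcripts of different genes, for 6 of the 100 and 5.07% of all genes. With _x_at and _s_at probe sets left out where a gene had another, 84 of the 100 genes remained.

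Promoter windows from 250 bases before to 50 bases after the annotated start (RefSeq, GRCm38.p6) were available for 14368 of the genes. The letters TATAAA, the core of the TATA box that positions the transcription machinery, occurred on either strand in 11.5% of these windows. The share changed with the level in both directions. In groups of 10% of the genes by level, it was 21.6% in the lowest group, 6.25% in the ninth, where it was smallest, and 10.4% in the highest. Among the 75 of the 100 highest genes with a window it was 16% (12 windows). GGGCGG, the core of the GC box bound by Sp1, occurred in 57.5% of all windows and in 21% of those of the lowest and 70.5% of those of the highest group. The median GC content of the windows was 48.3% in the lowest group, 63% in the ninth and 61.7% in the highest. Its part in the shares of both sets of letters was not tested. Below are the 100 bases before the start of a pair of the 10 highest genes that carry a TATAAA at the distance usual for a TATA box, shown in capitals, 28 to 23 bases before the start of Ckb (chr12:111672339-111672438, minus strand) and 30 to 25 bases before that of Ndrg4 (chr8:95702956-95703055, plus strand). A match describes these letters and not a bound site.
Ckb: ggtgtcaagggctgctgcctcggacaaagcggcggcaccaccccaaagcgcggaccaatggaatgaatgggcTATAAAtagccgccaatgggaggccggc
Ndrg4: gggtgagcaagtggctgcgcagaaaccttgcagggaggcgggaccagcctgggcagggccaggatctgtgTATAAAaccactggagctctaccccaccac

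The tissue label was checked against marker genes of the cell types. All 13 measured Purkinje cell genes lay above background, 11 of them among the highest 10% of genes, with a median level of 9.03 against 3.88 for all genes. All 15 granule cell genes lay above background too, 12 among the highest 10%, with a median of 9.08. Neurod1 (10.45 ± 0.09) and Cbln1 (10.03 ± 0.17), a synapse organiser that granule cells release onto Purkinje cells, stood beside Zic1 and Gabra6. Barhl1, a transcription factor of the granule lineage, was the lowest at 2.28 ± 0.25. In the Purkinje list, the Notch ligand Dner (10.25 ± 0.10) and Car8 (10.24 ± 0.14), which binds an IP3 receptor, followed Aldoc, Pcp4, Calb1 and Pcp2, and the transcription factor Foxp2 was lowest at 4.48 ± 0.23. No forebrain gene of 5 lay above background. The highest of them, Neurod6 of cortical and hippocampal excitatory neurons, had 2.18 ± 0.30.

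Glial lists came next. All 16 genes of Bergmann glia and astrocytes were above background, with a median of 8.51. The lipid carrier Apoe (9.40 ± 0.23), the gap junction protein Gja1 (9.32 ± 0.24), Hopx (9.31 ± 0.18) and S100b (9.19 ± 0.10) were highest. Gfap, the intermediate filament of most astrocytes, was the lowest at 4.45 ± 0.40. The 12 oligodendrocyte genes had a median of 6.99 and spanned a wide range, from Mbp at 11.46 to the transcription factor Sox10 at 5.32 ± 0.25. Inhibitory interneuron genes had a median of 6.39, with Pvalb (10.28 ± 0.12) and Gad1 (9.59 ± 0.20), which Purkinje cells also express, on top. The 11 endothelial genes had a median of 5.08, led by the glucose transporter Slc2a1 (7.28 ± 0.25). Microglial genes had a median of 3.66, and 12 of 14 were above background, with Ctss (6.56 ± 0.28) and Csf1r (6.50 ± 0.25) highest and Itgam lowest at 0.80 ± 0.15. In the cerebellar nuclei list 1 of 4 genes was above background, the vesicular glutamate transporter Slc17a6 at 5.09 ± 0.43. Of 5 red blood cell genes 2 were, Hbb-b2 at 3.23 ± 0.16 and Alas2 at 3.22 ± 0.35. In bulk tissue, fewer cells of a type and less RNA per cell cannot be told apart.

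**Figure D2:**
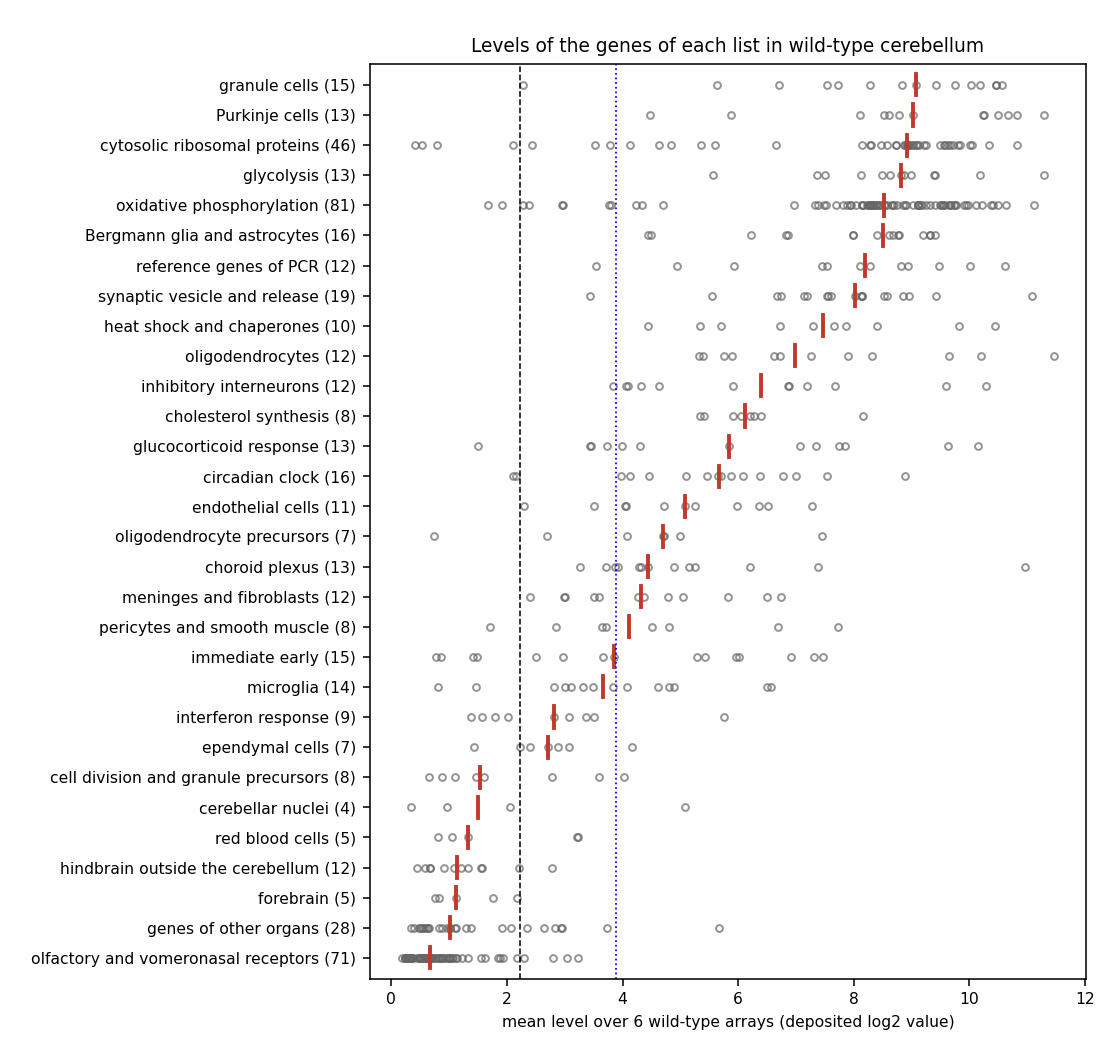
Mean level of each measured gene over the 6 wild-type arrays (horizontal axis, deposited log2 value) for each gene list (vertical axis, number of measured genes in parentheses). Open circles are genes, red bars the median of a list, the dashed line the background level of 2.23 and the dotted line the median gene at 3.88. Granule and Purkinje cell genes have medians of 9.08 and 9.03, forebrain genes 1.12.

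Lists of general cell functions were also high. The 46 cytosolic ribosomal protein genes had a median of 8.92, the 13 glycolysis genes 8.81, the 81 genes of oxidative phosphorylation 8.52 and the 19 synaptic vesicle genes 8.03. After Snap25 the synaptic list was led by the complexin Cplx1 (9.42 ± 0.08) and the calcium sensor Syt1 (8.95 ± 0.10). Its lowest member was the syntaxin Stx1a at 3.44 ± 0.35. Cell division genes were low, with a median of 1.53 and 3 of 8 above background. Mki67, a marker of dividing cells, had 0.88 ± 0.16, and Atoh1, which marks precursors of granule cells, 1.10 ± 0.11. Among 28 genes of other organs 7 exceeded the background level, the highest being the skin keratin Krt10 at 5.67 ± 0.20.

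In 27 families of related genes with at least 2 measured members, the leading member was above the second on all 6 arrays in 21, and the whole order was the same on all 6 arrays in 16. The gap between first and second exceeded the median difference between probe sets of the same gene (2.27) in 9 families. The first member had several probe sets in 20 families, and in 7 of these even its dimmest probe set lay above the second member. In 7 families the first member had 1 probe set, so this comparison could not be made. In the remaining 13 the order depended on the probe set chosen.

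The pore subunits of voltage-gated calcium channels were among these 13 families. Cacna1e (the R-type channel) had 6.98 ± 0.20, Cacna1g (a T-type channel) 6.61 ± 0.26 and Cacna1a 6.13 ± 0.33, rank 3792 of all genes. The values of Cacna1a were 6.31, 6.24, 6.43, 6.04, 5.51 and 6.25, lowest on 118Q-2. It had 4 probe sets, the dimmest with a mean of 1.20. Cacna1b (N-type) stood at 5.44 ± 0.19, Cacna1d and Cacna1c (L-type) at 4.93 ± 0.19 and 4.35 ± 0.20, and Cacna1h below background at 1.57 ± 0.28. Among the beta subunits that accompany the pores, Cacnb4 (8.80 ± 0.19) was 4.48 above Cacnb2 (4.32 ± 0.13), with Cacnb1 at 3.53 ± 0.16. The dimmest Cacnb4 probe set, at 6.47, was still above Cacnb2.

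In the GABA-A and NMDA receptor families the first member was far above the second. Gabra6 was 4.90 above Gabra4 (5.55 ± 0.19), and Gabra2, Gabra3 and Gabra5 followed at 3.82, 3.21 and 0.95. Grin2c, an NMDA receptor subunit of mature granule cells, stood at 7.73 ± 0.32, 3.97 above Grin2d. Grin2b had 2.50 ± 0.31 and Grin2a 0.68 ± 0.24. Grin2c and Grin2a had 1 probe set each, and for Grin2a little RNA and weak probe binding cannot be told apart. The AMPA receptor subunits lay closer together, and the dimmest Gria4 probe set was at 4.30. The mean of Gria4 was 8.98 ± 0.11, of Gria2 8.52 ± 0.18, of Gria1 7.27 ± 0.20 and of Gria3 6.93 ± 0.36. The cerebellins divided into a high pair, Cbln1 and Cbln3 (9.76 ± 0.17), and a pair below background, Cbln2 (1.42 ± 0.22) and Cbln4 (1.00 ± 0.24). Cbln1 was above Cbln3 on 4 of 6 arrays.

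Gaps of different size were found in the enzyme and structural families. Ckb was 3.84 above the mitochondrial Ckmt1 (7.27 ± 0.20), and the muscle enzyme Ckm had 2.35 ± 0.18. The neuronal enolase Eno2 (8.99 ± 0.23) was 4.77 above Eno3 of muscle (4.22 ± 0.15). Snap25 was 7.31 above Snap23, although its other probe set was at 4.15. Zic1 was 3.03 above Zic2 (7.54 ± 0.21), and Zic5 (6.85 ± 0.10) and Zic4 (5.01 ± 0.14) followed. Kcnc1, a potassium channel of fast-firing neurons, stood at 9.40 ± 0.14, 3.77 above Kcnc4, but its dimmest probe set at 2.55 was below. Gad1 exceeded Gad2 (6.87 ± 0.17) by 2.72, and Ldhb exceeded Ldha (7.50 ± 0.08) by 1.90. The calcium pumps Atp2b3 (9.35 ± 0.19) and Atp2b2 (8.69 ± 0.11) led Atp2b1 (7.85 ± 0.11), with Atp2b4 at 1.62 ± 0.38.

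In other families the first members lay close together. The glutamate transporters Slc1a2 (8.76 ± 0.09) and Slc1a3 (8.68 ± 0.17) of astrocytes differed by 0.09 ± 0.13. Slc1a6, the transporter of Purkinje cells, had 8.10 ± 0.08. The beta tubulins Tubb4a (8.56 ± 0.73), Tubb5 (8.39 ± 0.10), Tubb2a (8.20 ± 0.23) and Tubb4b (7.98 ± 0.05) lay within the spread of Tubb4a. Of the 14-3-3 proteins 6 lay between 9.38 and 10.31 and Sfn at 1.05 ± 0.11. The neurofilaments Nefl (8.63 ± 0.17), Nefm (8.14 ± 0.26) and Nefh (7.61 ± 0.21) kept that order on every array, with a first gap of 0.48, and both Nefl probe sets lay above Nefm, the dimmer at 8.16.

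**Figure D3:**
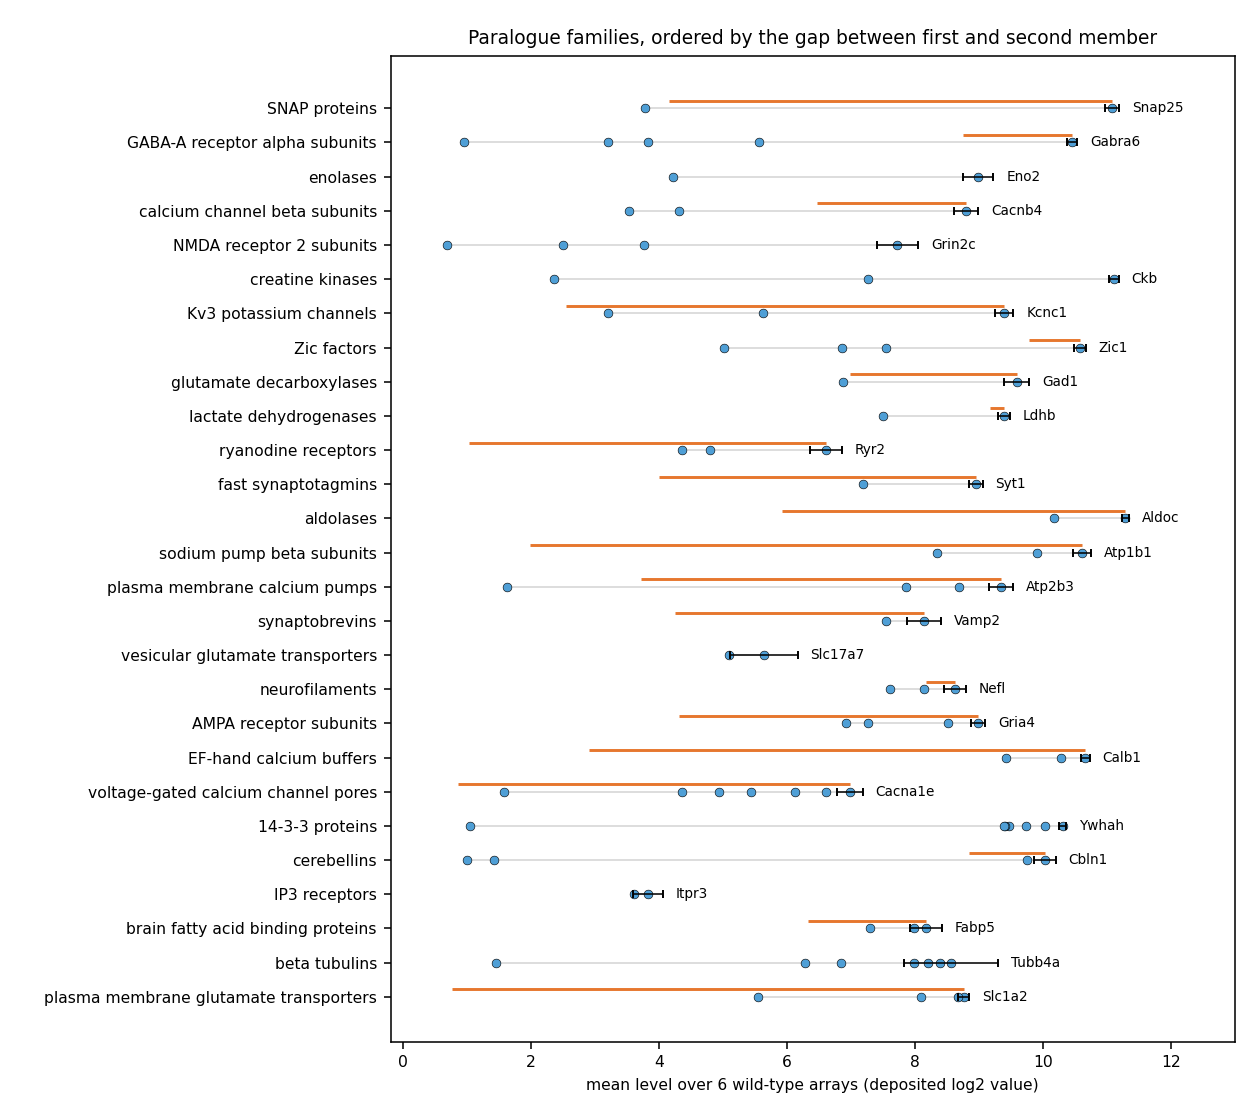
Mean level over the 6 wild-type arrays (horizontal axis, deposited log2 value) of the members of 27 paralogue families (vertical axis), ordered by the gap between first and second member. Blue circles are members, the black bar is the SD of the named first member over 6 arrays, and the orange line runs from its dimmest to its brightest probe set. Snap25 and Gabra6 lead by 7.31 and 4.90, Slc1a2 by 0.09.

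Most genes varied little between the 6 animals. The median SD was 0.16, and among the 9096 genes above the median level 89 (0.978%) had an SD over 0.5 and 13 an SD over 1. The spread of these 89 genes was then read in the other 12 arrays, as the SD pooled within the 4 groups. Their median place there was percentile 98.5 of the genes above the median level, with 58 above the 95th percentile and 16 below the 50th. Without its farthest array, 27 of the 89 genes kept an SD over 0.5.

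The widest spread belonged to genes of the choroid plexus, the epithelium that secretes cerebrospinal fluid. Kcne2, a potassium channel subunit, had 4.83, 5.10, 4.96, 5.86, 0.47 and 4.52. Kl, the anti-ageing protein klotho, had 5.38, 5.40, 4.80, 5.88, 0.83 and 4.41. Both were at the level of olfactory receptors on 118Q-2 and well above background on the other 5 arrays. The potassium channel Kcnj13 (2.95 on 118Q-2 against 5.86 to 7.08), Sostdc1 (1.64 against 4.21 to 5.52), the folate receptor Folr1 (2.29 against 4.91 to 6.06), Calml4 (1.38 against 3.93 to 5.06), Ecrg4 (4.18 against 6.52 to 7.79), Car12 (1.79 against 4.00 to 5.30), Clic6 (3.95 against 6.15 to 7.11), Htr2c (3.09 against 5.00 to 5.94), Cldn2 (2.24 against 3.75 to 4.74) and Lbp (3.01 against 3.85 to 5.27) had the same lowest array. Kcnj13, Ecrg4, Car12, Htr2c, Cldn2 and Lbp were not on the choroid plexus list. In the list of 13 choroid plexus genes, 10 had an SD over 0.5, where 1.08% of all genes did. The list mean was 2.96 on 118Q-2 and 5.18 to 6.18 on the others, highest on 118Q-1. Its SD over arrays was 1.16 with 118Q-2 and 0.39 without it. Igf2 (0.44), Slc13a4 (0.36) and Otx2 (0.36) had SDs below 0.5. Slc13a4 and Otx2 were still more than 0.5 below their median on 118Q-2. Of the 13 genes, 12 had their lowest value on that array, as did 12.5% of all genes. Ttr and Kcne2 varied in the other 12 arrays too, with pooled SDs of 2.65 and 2.46.

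**Figure D4:**
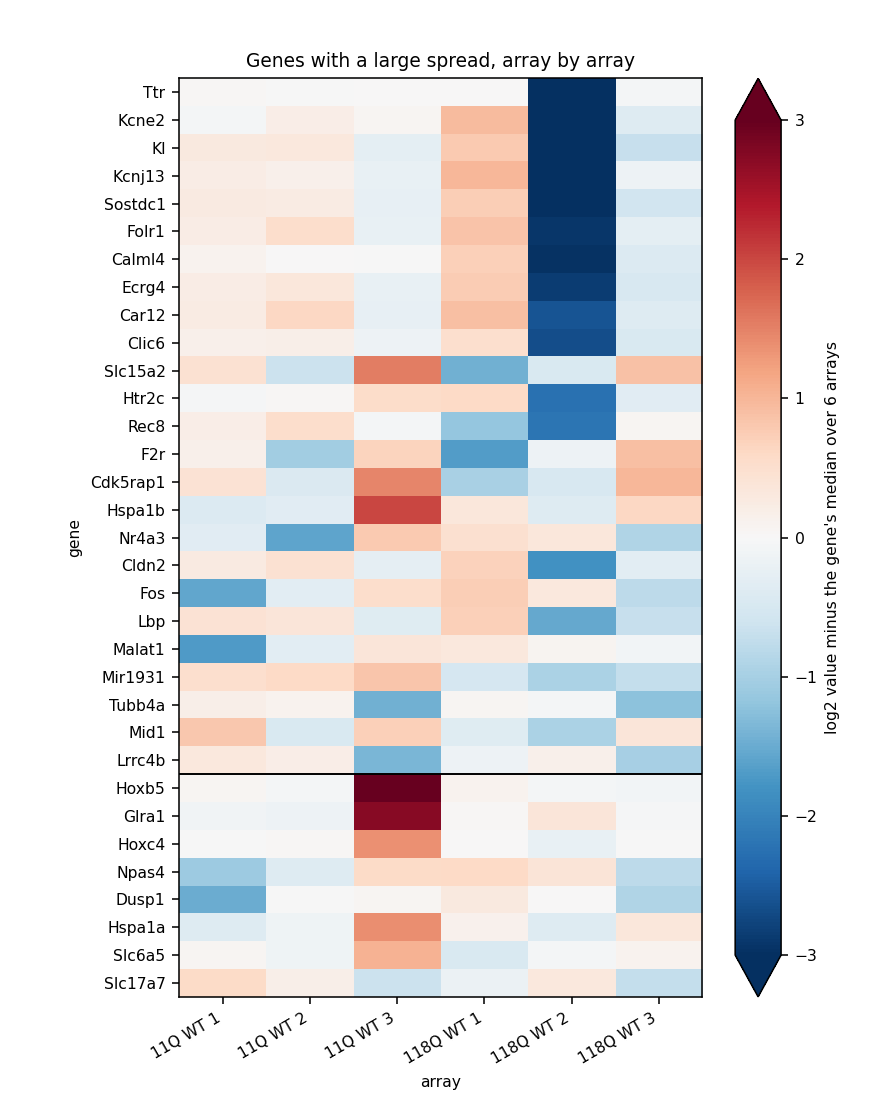
Log2 value minus the median of the gene over the 6 wild-type (WT) arrays, as colour, for the 25 named genes with the largest SD above the median level (above the line) and 8 further genes of the lists (below it). Columns are arrays and rows genes. The genes from Ttr to Clic6 are low on 118Q-2, and Hoxb5 and Glra1 are high on 11Q-3. Colours saturate at 3.

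Of 12 genes of the hindbrain outside the cerebellum, 5 were at least 0.5 above their median on array 11Q-3, where 1.96% of all genes were, and none was on another array. An SD over 0.5 was found in 3 of the 12, Hoxb5, Glra1 and Hoxc4 (1.08% of all genes). Hoxb5, a patterning gene of the lower brainstem and spinal cord, had 0.46, 0.36, 3.48, 0.51, 0.35 and 0.33. Glra1, the glycine receptor subunit of brainstem and spinal cord, had 0.99, 0.94, 3.82, 1.13, 1.44 and 1.04. Hoxc4 had 2.72 on 11Q-3 and 1.13 to 1.39 elsewhere. These 3 genes were above background on 11Q-3 alone. The mean of the 12 hindbrain genes was 1.89 on 11Q-3 and 1.03 to 1.16 on the other arrays. The motor neuron gene Chat (1.08 ± 0.13), the serotonergic gene Tph2 (0.58 ± 0.05) and Hoxa2 (0.44 ± 0.11) had means below background. Slc6a5, the glycine transporter of inhibitory neurons in the cerebellum and brainstem, was also highest on 11Q-3, at 5.28 against 3.76 to 4.32.

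Arrays 11Q-3 and 118Q-3 shared low values of a set of genes. The beta tubulin Tubb4a had 9.14, 9.06, 7.53, 9.02, 8.90 and 7.73, and Lrrc4b, a synaptic adhesion molecule, had 4.74, 4.63, 3.06, 4.27, 4.59 and 3.43. The vesicular glutamate transporter Slc17a7 had 6.30, 5.89, 5.07, 5.55, 6.03 and 5.01. In each of these genes the lowest values were those of these arrays. Of the 89 genes with an SD over 0.5, 27 had their lowest values on this pair of arrays, compared with 17.0% of all genes above the median level. These 27 also held genes that are not particular to neurons, such as the chromatin genes Smarcd1 and Kmt2a and the anion exchanger Slc4a2. Of the 16 genes that varied least in the other 12 arrays (below the 50th percentile there), 15 were among these 27. The median place of the 27 there was percentile 45.2, against 99.5 for the remaining genes. Tubb4a had a pooled SD of 0.10 there.

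The synaptic vesicle list was also low there, with means of 7.58 on 11Q-3 and 7.56 on 118Q-3 and 7.81 to 7.88 on the other arrays. Its widest spreads were those of the synapsin Syn1 (6.74 ± 0.48), synaptophysin Syp (8.12 ± 0.47) and Rab3a (8.57 ± 0.38), and no member had an SD over 0.5. The mean of the granule cell list was lowest on the same arrays, at 8.37 and 8.40 against 8.44 to 8.56. So was that of the glycolysis list, at 8.55 and 8.56 against 8.67 to 8.77. The mean of the Purkinje cell list was not, at 8.97 and 9.11 against 8.96 to 9.02. On 11Q-3, 5 of 19 synaptic vesicle, 4 of 15 granule cell and 3 of 13 glycolysis genes had their lowest value. The share of all genes was 24.2%. On 118Q-3 these were 7, 3 and 4 genes, against 12.4% of all genes. In the granule cell and glycolysis lists, only Slc17a7 and Pkm on both arrays and Grin2c on 11Q-3 were at least 0.5 below their median. In all, 299 genes above the median level were at least 0.5 below their median on 11Q-3 and 190 on 118Q-3, and 122 were on both. The counts on the other arrays were 60 to 162. The first principal component of the 6 arrays held 49.4% of the variance and had its highest scores on 11Q-3 (0.20) and 118Q-3 (0.16). Promoter windows of the genes low on 11Q-3 had a median GC content of 63.7%, and those low on 118Q-3 also 63.7%, against 61.7% for all genes above the median level. RNA quality, read as the 3' minus 5' signal of the Actb and Gapdh control probe sets, was 0.50 on 11Q-3 and 0.61 on 118Q-3 and 0.50 to 0.73 on the others. The hindbrain list mean was highest on 11Q-3 (1.89) and lowest on 118Q-3 (1.03). The part of these measures in the low values was not tested.

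**Figure D5:**
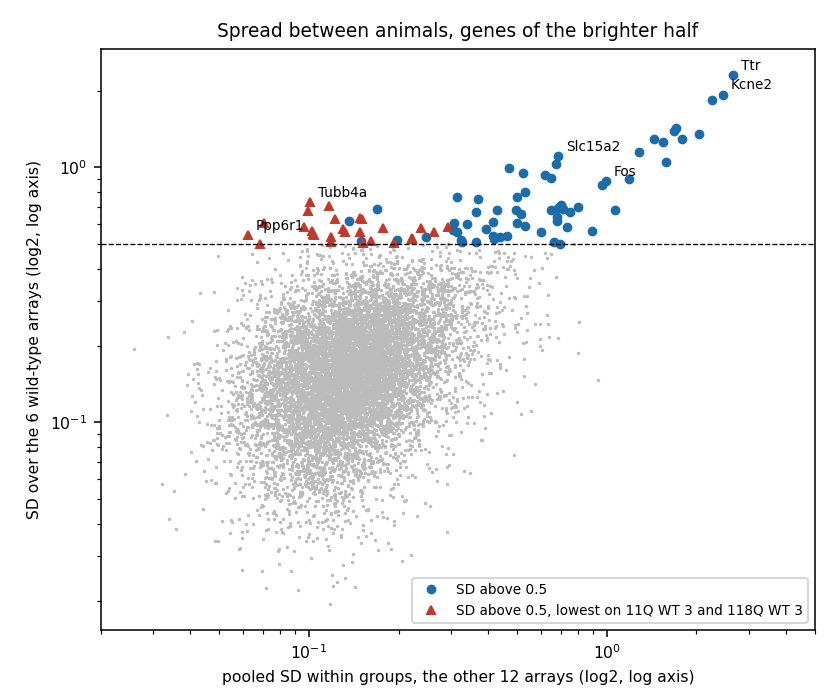
SD over the 6 wild-type arrays (vertical axis, log2 units, log axis) against the SD pooled within the 4 groups of the other 12 arrays (horizontal axis, log2 units, log axis) for 9096 genes above the median level. Coloured symbols are the 89 genes with an SD over 0.5 (dashed line), and triangles are the 27 of them with their lowest values on 11Q-3 and 118Q-3 (WT, wild type). Circles lie mostly at the right, triangles within the range of ordinary genes.

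Of 15 immediate early genes, which neurons transcribe within minutes of activity or stress, 4 had an SD over 0.5, where 1.08% of all genes did, and the median SD of the list was 0.30 against 0.16 over all genes. Fos had 5.93, 7.19, 8.03, 8.24, 7.81 and 6.72. Dusp1, a phosphatase of MAP kinases, had 6.31, 7.79, 7.86, 8.10, 7.82 and 6.90. Both were lowest on 11Q-1 and highest on 118Q-1. The nuclear receptor Nr4a3 had 5.84, 4.59, 6.96, 6.64, 6.51 and 5.28, lowest on 11Q-2. The fourth was Npas4 (2.50 ± 0.74). Egr1, in the same class, had 6.91 ± 0.27. The letters TGACGTCA, the full cAMP response element, occurred in 2.94% of all promoter windows (both strands) and in 2 of the 11 available for this list, those of Dusp1 and Btg2 (5.43 ± 0.32). The 200 bases before the start of Dusp1 (chr17:26508473-26508672, minus strand) show it in capitals, 143 to 136 bases before the start.
Dusp1: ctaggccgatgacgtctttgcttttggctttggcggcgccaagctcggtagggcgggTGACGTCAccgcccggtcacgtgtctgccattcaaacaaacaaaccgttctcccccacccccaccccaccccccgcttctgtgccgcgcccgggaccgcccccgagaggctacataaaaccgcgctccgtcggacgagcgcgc

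Of 10 heat shock and chaperone genes, 8 had their highest value on 11Q-3, as did 19.2% of all genes, and 4 were at least 0.5 above their median there (1.96% of all genes). An SD over 0.5 was found in 2, Hspa1b and Hspa1a. The inducible Hspa1b had 4.62, 4.69, 7.03, 5.36, 4.65 and 5.65, and its neighbour Hspa1a, which is nearly identical in sequence so that probes can read both, had 3.89, 4.15, 5.68, 4.41, 3.89 and 4.62. The mean of the 10 chaperones was 7.91 on 11Q-3 and 7.06 to 7.43 on the others. The 5 hindbrain genes were high on the same array, and their part in this was not tested. The constitutive Hspa8 (10.44 ± 0.14) was the highest of the list, followed by Hsp90aa1 (9.81 ± 0.16), and both were among the less variable. The mitochondrial chaperone pair Hspd1 (7.86 ± 0.05) and Hspe1 (7.65 ± 0.19), which work together in folding imported proteins, are transcribed away from each other from a shared promoter. The heat shock element, searched on both strands as GAA, TTC and GAA with any 2 bases between neighbours, occurred in 0.612% of all windows (88 of 14368) and in 3 of the 8 of this list. The 150 bases before each start, with 85 bases in common, carry the same 18 bases of overlapping matches in capitals, 144 to 127 bases before the start of Hspd1 (chr1:55087933-55088082, minus strand) and 89 to 72 before that of Hspe1 (chr1:55087998-55088147, plus strand).
Hspd1: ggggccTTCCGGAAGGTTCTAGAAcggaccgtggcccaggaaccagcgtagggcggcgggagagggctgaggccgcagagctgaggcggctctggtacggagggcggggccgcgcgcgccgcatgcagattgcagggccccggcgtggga
Hspe1: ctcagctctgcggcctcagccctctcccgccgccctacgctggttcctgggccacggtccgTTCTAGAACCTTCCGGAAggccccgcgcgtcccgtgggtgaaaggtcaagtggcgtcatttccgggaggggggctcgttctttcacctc

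Some of the most variable genes were on none of the lists. Slc15a2, a peptide transporter, had 7.11, 5.99, 8.19, 5.20, 6.18 and 7.53. The thrombin receptor F2r had 5.53, 4.33, 6.04, 3.69, 5.22 and 6.26, and Cdk5rap1, which modifies mitochondrial tRNA, had 4.69, 3.83, 5.73, 3.28, 3.78 and 5.27. All 3 genes were lowest on 118Q-1 and had their highest values on 11Q-3 and 118Q-3. Rec8, a meiotic cohesin, had 4.72, 5.04, 4.44, 3.35, 2.32 and 4.57. Malat1, a long noncoding RNA of the nucleus, had 8.03, 9.40, 10.09, 10.05, 9.81 and 9.64, with 11Q-1 apart from the rest. Mid1, at the edge of the pseudoautosomal region of the X chromosome, ranged from 3.73 on 118Q-2 to 5.49 on 11Q-1.

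The most stable genes were read among the highest 10%. The proteasome subunit Psmd1 (7.23 ± 0.02), the RNA-binding Zfr (8.87 ± 0.02) and Hprt of purine salvage (8.11 ± 0.02) had the smallest SDs. The respiratory chain subunits Ndufa1 (9.77 ± 0.03) and Ndufa9 (8.14 ± 0.03), the translation factor Eif4a2 (10.14 ± 0.03), Nsg1 (9.31 ± 0.03), malate dehydrogenase Mdh1 (9.95 ± 0.03), the proton pump subunit Atp6v1c1 (8.68 ± 0.03) and Psmd2 (7.77 ± 0.03) followed. Among 12 common reference genes of quantitative PCR the median SD was 0.11. Hprt, Pgk1 (8.81 ± 0.04) and Sdha (8.28 ± 0.04) varied least and Polr2a (5.93 ± 0.25) most.

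The wild-type mice of both lines were compared with limma over all 18193 genes, with Benjamini-Hochberg adjustment. The test called 0 genes (0%) at an adjusted p of 0.05. The median standard error of a difference was 0.13. Of the 18193 genes, 753 had an unadjusted limma p below 0.05. The 3 arrays of 1 line did not overlap those of the other in 1371 genes (7.54%). Neither of these counts is read as a difference between the lines. The smallest p belonged to the probe set annotated to Mir1931, a locus of a microRNA whose mature form such arrays do not measure. It had 4.59, 4.68 and 4.93 in the 11Q line and 3.60, 3.15 and 3.39 in the 118Q line, a difference of 1.36 ± 0.20 (SE; limma adjusted p = 0.0501). Next by p were Rmi2 (difference -0.56), the noncoding Rmst (0.70), Cpne8 (-0.88), a calcium-dependent membrane binding protein, and Spata31d1d (-0.48), with limma adjusted p of 0.69 or more. Left out singly, 11Q-3 gave 1 called gene and 118Q-1 gave 2, and the other 4 arrays gave 0.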

How the data were processed

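Total RNA from cerebella of C57BL/6 mice, with an RNA integrity number above 5.0 per the labels' protocols, was labelled with biotin and hybridised to Affymetrix mouse arrays. The authors deposited log2 expression values per probe set made with RMA, per the submitters' processing notes. RMA corrects background, makes the arrays' distributions alike and combines the probes of a probe set. Its version is not given in the sources used here. The 6 wild-type arrays were those labelled as littermates of the 11Q and 118Q lines. Of the probe sets, 64 controls and 10092 with several gene symbols or none were left out. Symbols came from the platform annotation and promoters from RefSeq GRCm38.p6. The number of arrays limits the precision.

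Per gene, mean, SD and rank over the 6 arrays were computed with Python 3.11.15 and pandas 2.3.3. The lines were compared with limma 3.58.1 in R 4.3.3, with 1 mean for each of the 6 groups of all 18 arrays, and the fit was tested on simulated data. The replicate numbers were checked as pairs through the correlation of deviations from group means (0.29, 0.05 and 0.54 for numbers 1, 2 and 3) and were not used as pairs.

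Named were the 25 highest and 25 most variable genes (above the median level), the 10 most stable of the highest 10%, up to 5 highest and 3 most variable members of each list, all measured family members, the 5 smallest p of the comparison and Cacna1a, leaving out predicted loci. Car8, Sox10, Itgam, Stx1a, Mki67, Atoh1, Chat, Tph2, Hoxa2, Btg2, Sdha, Smarcd1, Kmt2a and Slc4a2 fall outside this rule and were chosen after their values were seen. The members, lists and rule were chosen with earlier results of these data known. Alternatives covered probe sets, filters, normalization, model and each array left out.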

Additional observations from a re-analysis of the deposited data

Results flagged for a closer look

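The highest or lowest of 6 arrays stood apart by Dixon's criterion, which sets the gap to the nearest array against the whole range, in 18 of 89 series of values examined, which were the array means of the gene lists and the values of the highest, most variable and most stable genes. In series not chosen by their spread, chance alone gives about 1 in 20. The most variable and most stable genes were chosen by their spread over the same arrays. The rate does not apply to them, and the count of 18 is not set against it.

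Array 118Q-2 was the low one for the choroid plexus list mean (gap 0.689 of the range) and for Ttr (0.982), Kcne2 (0.751), Kl (0.709), Kcnj13 (0.706), Sostdc1 (0.661), Folr1 (0.695), Calml4 (0.692), Ecrg4 (0.650), Car12 (0.630), Clic6 (0.694) and Htr2c (0.667). These genes were also chosen for their spread, so their flags are not independent of each other.

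Array 11Q-3 was the high one for the mean of the hindbrain list (0.850) and for Ndufa1 (0.664, 9.82 against 9.75 to 9.77). Array 11Q-1 was the low one for Malat1 (0.667) and Mdh1 (0.780, 9.89 against 9.95 to 9.97). For Gpm6a the low array was 118Q-1 (0.744, 10.52 against 10.69 to 10.74). For Aldoc the high array was 118Q-3 (0.660, 11.40 against 11.25 to 11.30). In Ndufa1, Mdh1, Gpm6a and Aldoc the whole range was 0.22 or less.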

How the results depend on the processing

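The count of genes above background (11717) stayed within 1.5 times under the 13 alternatives run, from 8551 with the dimmest probe set to 12456 with the 90th percentile of receptor genes. The count of 89 genes with an SD over 0.5 became 196 without the filter on dim genes and 297 with the wild-type littermates of the CtmKO line added (9 arrays), with 71 of the 89 genes among the latter. With 1 array left out in turn it was 63 to 108, lowest without 11Q-3. The line comparison called 1 gene with the genes below the median level left out, 1 with a trended and robust variance prior and 1 after renewed quantile normalization, and 0 to 2 with 1 array left out in turn. It called 0 with the replicate block (replicate numbers as a block), with every probe set, with the mean of probe sets, with the 6 arrays alone, without the CtmKO line, with the RNA quality measure as a covariate and with a minimum of 1.5-fold. Of the levels of the 25 highest genes under 10 alternatives, 204 moved by less than 1 SD and 46 by more. The mean of probe sets and the dimmest probe set each moved 21 of the 25 levels. Of the spreads of the 25 most variable genes, 224 stayed within 1.5 times and 26 did not. Leaving out 118Q-2 moved 13 of the 25 spreads, and the mean of probe sets moved 9. The causes were not tested.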

Other observations

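Other lists followed the animals differently. Metallothioneins led the glucocorticoid response list, with Mt1 at 10.16 ± 0.30 (SD, n = 6 arrays) and Mt2 at 9.63 ± 0.30, and the list mean was highest on 118Q-2 at 6.12 against 5.74 to 5.97. In the circadian clock list Nr1d2 was highest (8.89 ± 0.17) and Per2 varied most, with 5.21, 3.76, 4.89, 4.24, 4.64 and 3.97. Its output gene Dbp was highest on 11Q-1 at 7.67 and lowest on 118Q-1 at 6.50. The interferon list was highest on 118Q-3, at 3.21 against 2.56 to 2.91, with Ifit3 at 4.60 there and 2.89 to 3.76 elsewhere. The oligodendrocyte list ran from 7.23 on 118Q-3 to 7.92 on 118Q-2, and its myelin gene Mog from 5.35 on 118Q-1 to 6.64 on 118Q-2. The cholesterol synthesis list, led by Hmgcs1 (8.16 ± 0.24), ran from 5.97 on 11Q-1 to 6.52 on 11Q-3. Of its 8 genes 6 had a promoter window, and all 6 held CCAAT (42.0% of all windows) and GGGCGG (57.5% of all windows and 72.1% of those of genes above the median level). GGGCGG was also in all windows of the heat shock list (8) and the cell division list (6).

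Among the genes below the median level, 107 had an SD over 0.5. Array 11Q-3 was the highest in 36 of these and in 11.7% of all genes below the median level. Chosen after their values were seen, the membrane protein Lamp5 had 5.35 on 11Q-3 against 1.45 to 2.85, the tachykinin precursor Tac1 had 3.65 against 1.13 to 1.42, and Gabra5 had 2.58 against 0.44 to 0.96. Comp, a matrix protein, was instead high on 118Q-2 (4.06) and 118Q-3 (4.19), against 1.69 to 2.15.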
